A study of Mus musculus with 8 samples.

Results

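Hemoglobin and red cell membrane genes were followed in brown adipose tissue (BAT) of mice with cancer-associated cachexia. The 8 genes were taken by name from a count table of 56953 genes. They are the alpha globins Hba-a1 and Hba-a2, the beta globins Hbb-bs and Hbb-bt, the heme enzyme gene Alas2, the membrane genes Slc4a1 and Epb42, and Isg20. Bulk RNA of BAT was sequenced from 8 wild-type C57BL/6J mice, taken as 1 library per mouse. The 4 CAC mice received 3000000 LLC cells, a mouse Lewis lung carcinoma line, under the skin of the right flank at 8 to 10 weeks of age, and the 4 CTR mice received PBS alone. Mice were monitored for 21 days, and the study kept only injected mice that grew a tumor. The mice of the study were male or female. Here Xist did not exceed 1 count and Ddx3y, a Y-linked gene, lay between 61.6 and 72.2 CPM in every library, which bears on Alas2 because that gene is X-linked.

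Red cells fill with hemoglobin, a protein of paired alpha and beta chains that carry heme. Alas2 makes the erythroid form of the enzyme that starts heme synthesis. Slc4a1 makes band 3, the anion exchanger that ties the membrane to the spectrin skeleton, and Epb42 makes protein 4.2, which binds band 3. Newly released red cells, called reticulocytes, have lost the nucleus but still hold RNA, which they shed as they mature, so that the RNA of blood within a tissue can be read in a bulk library. Isg20 encodes an RNA exonuclease named for its induction by interferon.

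The libraries held 1823167 to 4827956 counts, so that a gene with no count may still be present at up to 0.621 to 1.65 CPM (counts per 1000000 counts of a library), the level of 3 counts. All 11 listed brown adipocyte markers passed the filter on low counts, with Ucp1, the thermogenic uncoupling protein gene, between 3556 and 4889 CPM in all 8 libraries. CPM values here are scaled by TMM normalization, and a fold change is CAC over CTR from edgeR's quasi-likelihood test. Called means a Benjamini-Hochberg adjusted p under 0.05 over the 9876 genes tested.

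The genes lie on several chromosomes (GRCm38, GENCODE M21), with the alpha globins near each other and likewise the beta globins. Hba-a1 spans chr11:32283511-32284465 and Hba-a2 chr11:32296489-32297298, both on the plus strand. Hbb-bs spans chr7:103826534-103828096 and Hbb-bt chr7:103812524-103813996, both on the minus strand. Alas2 lies at chrX:150547375-150570638 on the plus strand, Slc4a1 at chr11:102348824-102366203 and Epb42 at chr2:121017891-121037072 on the minus strand, and Isg20 at chr7:78913424-78920396 on the plus strand.

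Promoters of the members are shown as a description, from 250 bases before to 50 after the transcription start (RefSeq, GRCm38.p6). A window was given for 7 of 8 members, and Slc4a1 had no entry. Capitals mark matches on either strand to AGATAA or TGATAA (letters bound by GATA factors), CCNCNCCC (bound by the erythroid factor Klf1 and related proteins), TGAGTCA (bound by Nfe2 and AP-1) and TATAAA. Positions count the leftmost base of a match as printed, with the start at 1 and no position 0.
Hba-a1, chr11:32283422-32283721, plus strand: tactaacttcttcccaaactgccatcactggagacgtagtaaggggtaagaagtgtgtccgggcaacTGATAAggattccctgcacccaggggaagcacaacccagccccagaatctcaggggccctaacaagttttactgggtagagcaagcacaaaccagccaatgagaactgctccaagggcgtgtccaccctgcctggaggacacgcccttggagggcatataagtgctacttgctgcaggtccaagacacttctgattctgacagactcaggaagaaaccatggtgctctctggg
Hbb-bs, chr7:103827879-103828178, minus strand: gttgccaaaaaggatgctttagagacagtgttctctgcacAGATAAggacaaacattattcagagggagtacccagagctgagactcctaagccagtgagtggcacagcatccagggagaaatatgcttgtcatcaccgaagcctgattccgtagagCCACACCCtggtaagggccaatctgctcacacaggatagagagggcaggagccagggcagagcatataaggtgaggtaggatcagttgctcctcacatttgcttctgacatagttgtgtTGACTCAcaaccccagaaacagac
Hbb-bt, chr7:103813874-103814173, minus strand: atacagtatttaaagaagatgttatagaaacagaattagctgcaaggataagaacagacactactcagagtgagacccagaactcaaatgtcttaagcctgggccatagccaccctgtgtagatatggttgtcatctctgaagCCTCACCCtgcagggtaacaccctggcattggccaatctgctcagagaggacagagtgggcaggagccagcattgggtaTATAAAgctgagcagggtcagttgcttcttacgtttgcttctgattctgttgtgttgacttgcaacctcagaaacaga
Alas2, chrX:150547167-150547466, plus strand: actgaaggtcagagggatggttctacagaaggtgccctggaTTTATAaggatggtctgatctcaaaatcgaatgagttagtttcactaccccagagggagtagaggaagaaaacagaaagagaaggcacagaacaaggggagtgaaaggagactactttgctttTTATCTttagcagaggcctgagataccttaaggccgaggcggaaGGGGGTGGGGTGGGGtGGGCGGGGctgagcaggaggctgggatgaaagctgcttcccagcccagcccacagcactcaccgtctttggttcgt
Isg20, chr7:78913985-78914284, plus strand: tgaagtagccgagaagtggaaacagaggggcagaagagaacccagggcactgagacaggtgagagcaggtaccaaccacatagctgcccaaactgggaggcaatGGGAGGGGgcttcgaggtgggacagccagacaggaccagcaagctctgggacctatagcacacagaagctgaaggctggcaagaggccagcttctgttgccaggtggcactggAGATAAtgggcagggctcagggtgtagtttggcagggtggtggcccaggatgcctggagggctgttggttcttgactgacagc

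The window of Hba-a2 shares an unbroken run of 297 of 300 bases with that of Hba-a1, while the longest run shared by Hbb-bs and Hbb-bt is 14 bases. TGATAA starts at position -183 in Hba-a1 and AGATAA at -210 in Hbb-bs. Hbb-bt holds neither motif, and has TATAAA at -28. AGATAA lies at -86 in Alas2 and at -226 in Epb42, whose window is not printed. Of the 3 windows of Isg20, 1 holds AGATAA, at -33, and it is the one printed. Over all 32851 promoter windows of this length, AGATAA was found in 11.2%, TGATAA in 9.05%, CCNCNCCC in 49.5%, TGAGTCA in 5.20% and TATAAA in 13.6%. Overlapping matches of CCNCNCCC, of which Alas2 has 4, share capitals. These matches describe letters only, and binding was not measured.

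All 4 globin genes had higher mean levels in CAC than in CTR BAT, by 2.57-fold to 3.15-fold in the fit, but none was called by edgeR's test, DESeq2 or limma-trend. In edgeR 3 of them had an unadjusted p under 0.05, and the groups overlapped for each of the 4. CAC replicate 2, which was low among cachectic mice, lay below CTR replicate 3, which was high among controls, and for Hbb-bs also below CTR replicate 2. Together the 4 genes took 1.12% ± 0.551 of the counts in CTR and 2.94% ± 1.24 in CAC libraries (SD, n = 4 each). Single libraries ranged from 0.580% (Wilson 95% interval 0.573% to 0.587%) in CTR replicate 4 to 4.12% (4.10% to 4.15%) in CAC replicate 1, and these intervals cover counting error only.

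Hba-a1 was at 4116, 3841, 8080 and 2651 CPM in CTR replicates 1 to 4 and at 20086, 6509, 15184 and 9818 CPM in CAC replicates 1 to 4. CAC replicate 2 lay below CTR replicate 3, and the other 3 CAC libraries lay above every CTR library. The log2 fold change was 1.47 ± 0.49 (SE), with an unadjusted p of 0.0238 and an adjusted p of 0.29 by edgeR's quasi-likelihood test. Hba-a2 was at 3703, 3450, 7255 and 2336 CPM in CTR and at 14890, 5830, 13533 and 8763 CPM in CAC. Its order of libraries was that of Hba-a1, with a log2 fold change of 1.36 ± 0.46 and an adjusted p of 0.294. The copies are near-identical: 389 of the 480 windows of 75 bases in the main Hba-a2 transcript, 81.0%, also occur in that of Hba-a1, so the split of reads between them is uncertain. Counts of Hba-a1 carried decimals in 5 of 8 libraries, as reads that fit several places were counted in fractions.

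Hbb-bs, the more abundant of the pair of adult beta globin genes by counts, was at 1663, 1833, 3169 and 950.4 CPM in CTR and at 7237, 1700, 7195 and 3889 CPM in CAC. Here CAC replicate 2 lay below both CTR replicates 2 and 3. The log2 fold change was 1.40 ± 0.58 with an adjusted p of 0.388. Hbb-bt was at 392.3, 316.8, 558.3 and 180.5 CPM in CTR and at 1646, 422.6, 1536 and 941.1 CPM in CAC. The fitted log2 difference was 1.66 ± 0.54 with an adjusted p of 0.28. CAC replicate 2 again lay below CTR replicate 3. The beta copies share 356 windows of 75 bases, 64.3% of those of Hbb-bs, so their split is uncertain too.

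Summed over the 4 genes, hemoglobin averaged 11124 CPM in CTR (SD 5552, n = 4) and 29795 CPM in CAC (SD 13319, n = 4). On the log2 scale the groups differed by 1.42, that is 2.67-fold, and an exact permutation test, two-sided as all such tests here, gave p = 0.0571. With 4 against 4 libraries, 70 assignments are possible and the smallest p is 0.0286. Within a group the highest library was 3.12 times the lowest in CTR and 3.03 times the lowest in CAC. These ratios compare the extreme libraries of a group and not means, so they are no measure against the 2.67-fold difference between groups. In bulk samples such as these, fewer cells of a type and less RNA per cell cannot be told apart. How much blood each piece of tissue held was not measured.

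**Figure D1:**
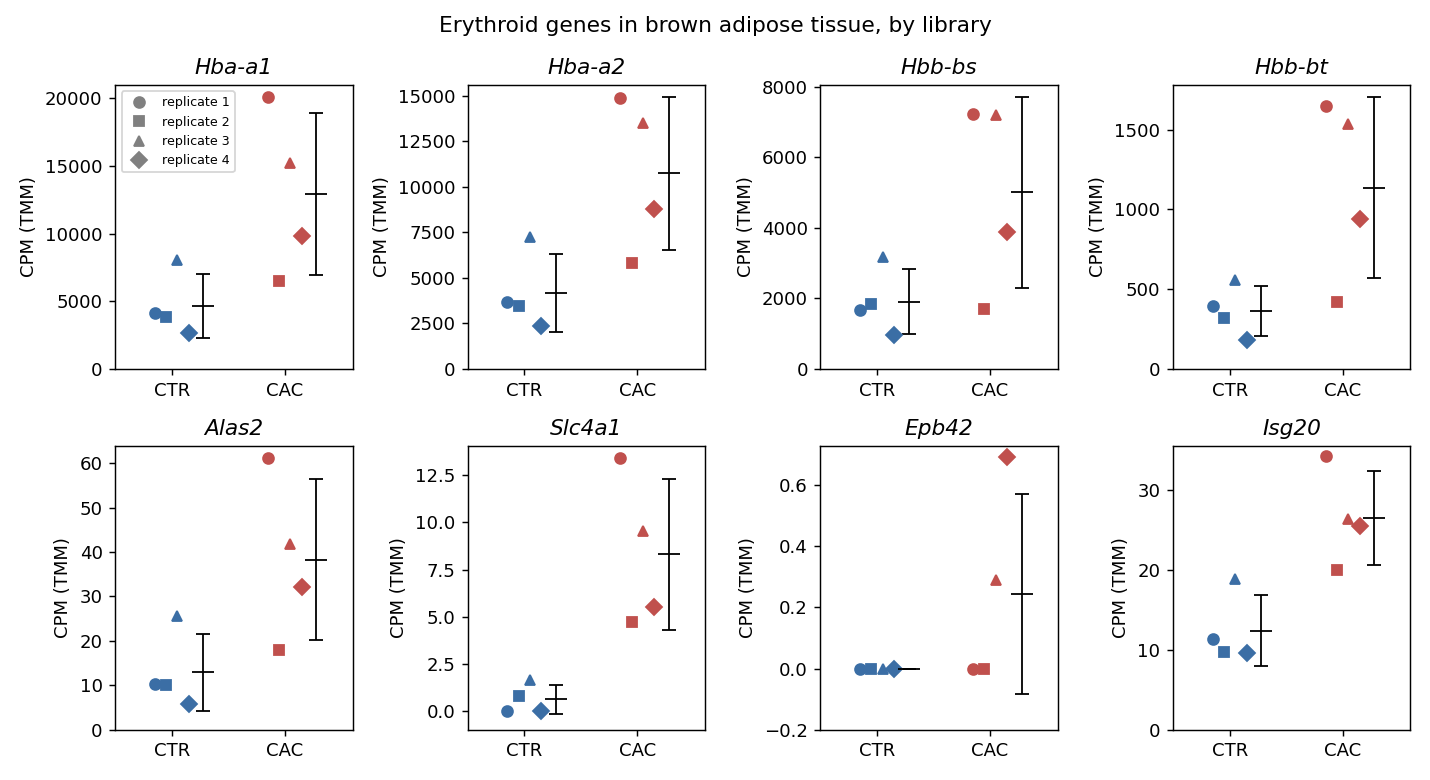
Level of each of the 8 genes by library, in TMM-scaled CPM on linear axes, with CTR in blue, CAC in red, 1 symbol per replicate number and the mean ± SD of 4 libraries beside each group. For the globins and Alas2 the square of CAC replicate 2 lies below the triangle of CTR replicate 3, whereas the groups separate for Slc4a1 and Isg20.

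Alpha and beta globin kept a similar balance in both groups. The count ratio of alpha to beta, not corrected for length, was 3.80, 3.39, 4.11 and 4.41 in CTR and 3.94, 5.81, 3.29 and 3.85 in CAC. CAC replicate 2 stood highest and the other 3 CAC libraries lay within or just below the CTR range. As log2 ratios the groups were at 1.97 ± 0.16 and 2.04 ± 0.35 (SD, n = 4 each), a difference of 0.08 (exact permutation p = 0.771). Without CAC replicate 2 the difference was -0.09. Within the beta pair, the log2 ratio of Hbb-bs to Hbb-bt was 2.38 ± 0.21 in CTR and 2.10 ± 0.10 in CAC, with overlap and an exact permutation p of 0.0857, a ratio added after the values were seen.

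Of the other globins, Hba-x alone exceeded 3 counts in a library. Of 11 listed globin genes, 10 were in the table, and the 4 members were the ones that passed the filter on low counts. Hbb-y, an embryonic beta globin, had no count in any library. Hba-x, the embryonic alpha-like globin, had 57.4, 0, 40.2 and 39.2 counts in CAC replicates 1 to 4, 7.5 in CTR replicate 3 and none in the other CTR libraries. Its main transcript shares none of its 727 windows of 75 bases exactly with that of Hba-a1, and its counts carry decimals in each library that has any. The remaining 4 did not exceed 3 counts in a library.

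Alas2 behaved as the hemoglobins did, higher on average in CAC but with overlapping groups. It was at 10.3, 10.0, 25.5 and 5.7 CPM in CTR and at 61.1, 17.9, 41.7 and 32.1 CPM in CAC. CAC replicate 2 lay below CTR replicate 3, the same exchange as in Hba-a1. The log2 fold change was 1.66 ± 0.55 with an unadjusted p of 0.021 and an adjusted p of 0.28. Leaving out CTR replicate 3 gave 2.17 with an adjusted p of 0.086, and the adjusted p ranged from 0.086 to 0.521 over 16 alternatives.

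Alas2 and hemoglobin were tied closely, library by library. Across the 8 libraries log2 Alas2 and log2 summed hemoglobin had a Pearson r of 0.993 and a Spearman rho of 1.0, with exact permutation p of 2.48e-05 and 4.96e-05. The first is the smallest that the permutations can give, and it is 7.44e-05 after Benjamini-Hochberg adjustment over the 3 pooled relations computed. Without the 2 libraries farthest from the median the r was 0.985. With each value centred on its group mean, so that no difference between groups enters, r was 0.984 with an exact permutation p of 0.00174, the smallest possible within groups. Both values share a library and its scaling.

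Hemoglobin counts per Alas2 count, with 0.5 added to each, were 939, 919, 736 and 1077 in CTR and 718, 785, 894 and 725 in CAC. These ratios stayed within a narrow band, although the hemoglobin sum ranged from 6118 to 43859 CPM. The log2 ratios were 9.83 ± 0.23 in CTR and 9.60 ± 0.15 in CAC, a difference of -0.23 with overlapping groups and an exact permutation p of 0.143.

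Alas2 shares its place with Apex2, a DNA repair endonuclease gene on the opposite strand. Exon 150568862 to 150572682 of an Apex2 transcript on chromosome X covers the last Alas2 exon, an overlap of 311 bases, and the strand setting of the counting is not given in the sources used here. Apex2 counts were 43, 58.5, 80.5 and 58 in CTR and 127.5, 50.5, 162 and 104 in CAC, and exceeded those of Alas2 by 11 to 32.5 in every library. Reads within the overlap cannot be told apart. With both genes in the denominator, an alternative chosen after seeing the data, hemoglobin counts per Alas2 and Apex2 count were 323 to 382 in CTR and 321 to 421 in CAC. On the log2 scale the groups then differed by 0.01 (exact permutation p 0.886), against -0.23 with Alas2 alone. The counts by which Apex2 exceeded Alas2 also enter this denominator, so it does not correct the ratio to Alas2, and no conclusion is drawn from the shift.

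Slc4a1 was the member that differed most. It had 0, 3, 4 and 0 counts in CTR and 25, 9, 32.8 and 16 counts in CAC, that is 0, 0.791, 1.64 and 0 CPM against 13.4, 4.74, 9.57 and 5.52 CPM. Every CAC library lay above every CTR library, although CAC replicate 2 again was lowest of its group and CTR replicate 3 highest of its own. The log2 fold change was 3.88 ± 0.60, or 14.7-fold, with an adjusted p of 0.00343 by edgeR's quasi-likelihood test. With a library left out it ran from 3.34 (without CTR replicate 4) to 4.74 (without CTR replicate 3). Slc4a1 passed the filter on low counts through the CAC libraries alone, so that it could only be tested because it was high there. The exact Poisson intervals for 3 and 4 counts run from 0.619 to 8.77 and from 1.09 to 10.2 counts, so the fold is loosely bounded by counting alone.

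Of the 8 members 7 were tested, and 2 were called, Slc4a1 and Isg20, both higher in CAC. Slc4a1 could enter these counts only because it was high in CAC, a limit that Isg20 does not share. Both were among members chosen with earlier results of these data known, so neither call is independent support. Among all 9876 genes tested, 73 were called higher, which is 0.739%. In 2 of the tested members the groups did not overlap, again Slc4a1 and Isg20, and among all genes every CAC library exceeded every CTR library in 3.65%. At an unadjusted p under 0.05, 6 members were higher in CAC, against 7.01% of all genes. The members shared most of their variation, so these counts are not independent of each other.

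**Figure D2:**
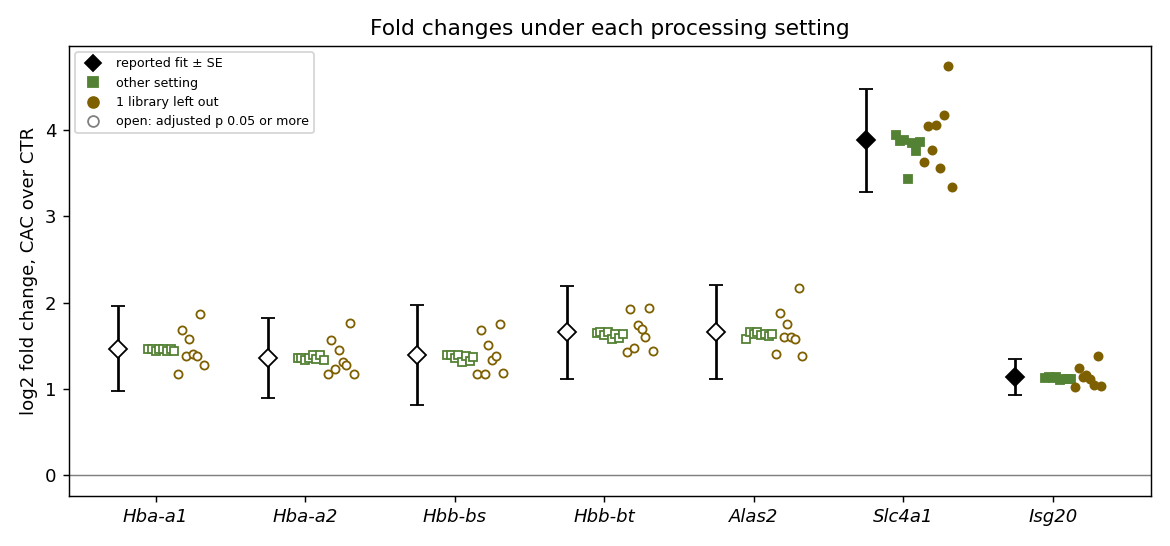
Log2 fold change of the 7 tested members (vertical axis) in the reported fit, as black diamonds ± SE, under other settings, as green squares, and with 1 library left out, as brown circles. Filled symbols have an adjusted p under 0.05: all those of Slc4a1 and Isg20 are filled and none of the others is, and the values of Alas2 reach from 1.38 to 2.17 when 1 library is left out.

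Hemoglobin was also set against Slc4a1 in each library, with the limit that Slc4a1 had at most 4 counts in a CTR library and passed the filter through CAC alone. Hemoglobin counts per Slc4a1 count were 3274, 3053, 3935 and 4238 in CAC. In CTR replicates 2 and 3 they were 11941 and 11592, with intervals of 4086 to 57903 and 4527 to 42544 from the Poisson intervals of Slc4a1. CTR replicates 1 and 4 had no Slc4a1 count. On the exact Poisson 95% interval used for the other libraries, their ratios were at least 7512 and at least 7591. Had the count been at the floor of 3, the ratios would be 9237 and 9334. Each CTR value or lower bound lay above the CAC values. The CAC intervals end at 5060, 6677, 5723 and 7415, so those of CTR replicates 2 and 3 overlap them, and counting error alone does not separate every library.

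With 0.5 added to the counts, the log2 ratio of hemoglobin to Slc4a1 was 14.55 ± 1.41 in CTR and 11.77 ± 0.24 in CAC, a difference of -2.78 that is given as a description. Its size depends on the count added, as Slc4a1 was 0 in 2 CTR libraries, and it was -3.98 with 0.1 and -2.23 with 1 added. Set against Alas2 and Slc4a1 together, hemoglobin was at 9.78 ± 0.27 in CTR and 9.32 ± 0.13 in CAC. Here CTR replicate 3 and CAC replicate 3 overlapped, and the difference of -0.46 had an exact permutation p of 0.0571. Alas2 supplied most of that denominator, and with Apex2 counts added to it the difference was -0.10 (exact permutation p 0.343). Those added counts include the excess of Apex2 over Alas2, so this value does not correct the ratio.

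**Figure D3:**
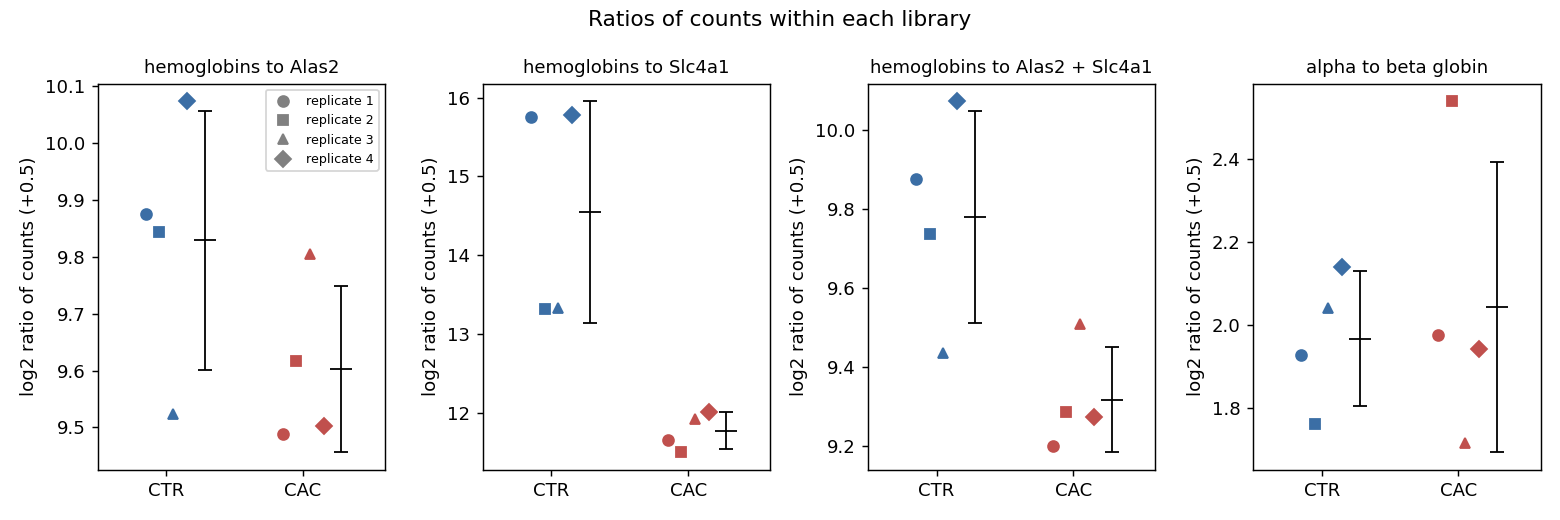
Log2 ratio of counts within each library, with 0.5 added to each sum, for hemoglobins to Alas2, to Slc4a1 and to both, and for alpha to beta globin, with CTR in blue, CAC in red, symbols for replicate numbers and the mean ± SD of 4 libraries beside each group. The ratio to Slc4a1 separates the groups, with both CTR libraries without a Slc4a1 count at the top, while the ratio to Alas2 overlaps between 9.5 and 9.8.

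Epb42 had no count in any CTR library nor in CAC replicates 1 and 2, 1 count in CAC replicate 3 and 2 in CAC replicate 4. It did not pass the filter, and a difference was not detectable at this depth.

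Isg20 was called as well. It was at 11.4, 9.8, 18.9 and 9.6 CPM in CTR and at 34.3, 20.0, 26.4 and 25.5 CPM in CAC, from 32 to 91 counts per library. The groups did not overlap, but the gap was narrow, as CAC replicate 2 exceeded CTR replicate 3 by little. The log2 fold change was 1.14 ± 0.21, or 2.20-fold, with an adjusted p of 0.00998 by edgeR's quasi-likelihood test. Over the 16 alternatives the adjusted p ranged from 1.14e-06 to 0.0446.

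The order of the libraries in Isg20 resembled that in hemoglobin also within groups. Because the groups separate for Isg20 and Slc4a1, no pooled correlation is given for them. With values centred on group means, Isg20 had an r of 0.909 with summed hemoglobin (exact permutation p 0.00174, adjusted 0.00522 over 6 relations) and a rho of 0.929. For Slc4a1 the r was 0.865 and the rho 0.731, given as a description. No test is read from them, as Slc4a1 had at most 4 counts in a CTR library and passed the filter through CAC alone. Without the 2 libraries farthest from the median the r was 0.846 for Isg20 and 0.791 for Slc4a1. Epb42, with 3 counts in all, had an r of 0.006 (exact permutation p 1.0).

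Of 22 listed interferon-stimulated genes, 11 were tested, 8 were higher and Isg20, itself a member, was the one called. Among all genes tested 0.739% were called higher. The median log2 fold change of the list was 0.25, against -4.67e-05 over all genes tested. At an unadjusted p under 0.05 by edgeR's test, 3 of the list were higher, beside 7.01% of all genes. Isg20 thus had the largest log2 fold change of the tested genes of this list.

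**Figure D4:**
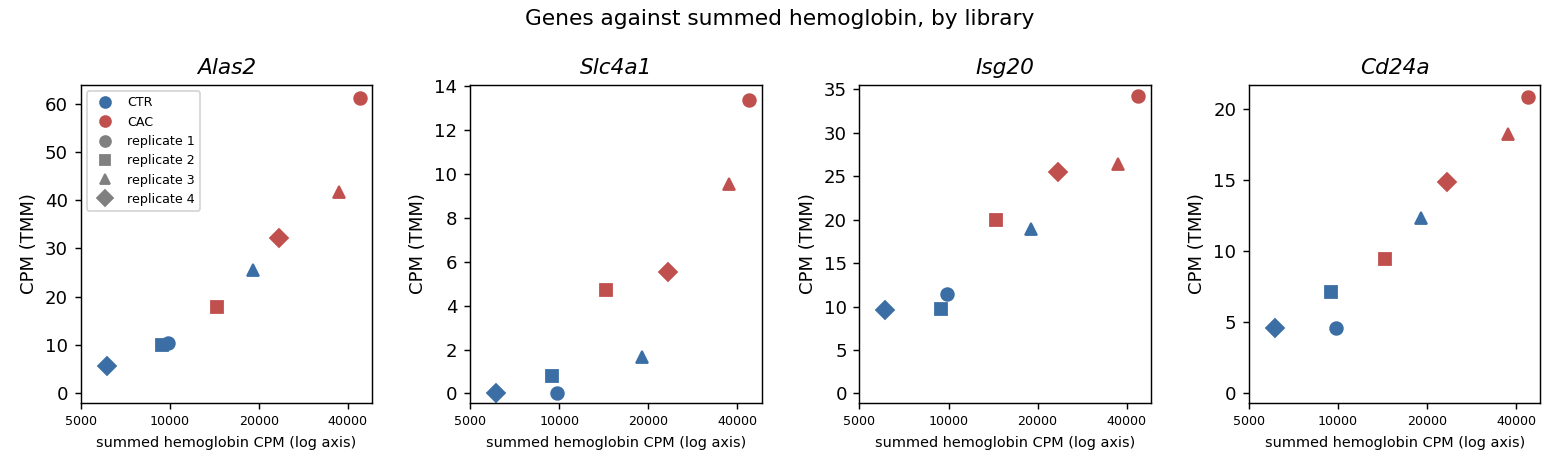
CPM of Alas2, Slc4a1, Isg20 and Cd24a (linear vertical axes) against summed hemoglobin CPM (log axis) in the 8 libraries, with CTR in blue, CAC in red and a symbol for each replicate number. Alas2 orders the libraries exactly as hemoglobin does, while CAC replicate 2 lies above CTR replicate 3 in Slc4a1 and Isg20 at a lower hemoglobin level.

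The genes whose log2 CPM was most like summed hemoglobin over the 8 libraries, among 8588 genes with a mean of at least 5 CPM, were Alas2 (r = 0.993), Apex2 (0.984), Cd24a (0.967), Mkrn1 (0.963) and Bpgm (0.962). Cd24a encodes a surface antigen of blood and epithelial cells, Mkrn1 a ubiquitin ligase, and Bpgm the red cell enzyme that makes 2,3-bisphosphoglycerate. These r values were chosen as the largest of many and are given as a description. Most like the mean of Alas2 and Slc4a1 were Cd24a (r = 0.977), Apex2 (0.974), Isg20 (0.972), Slc25a37 (0.964) and Rps12l1 (0.952), a copy of a ribosomal protein gene whose reads may be shared with its parent. The log2 fold change of Cd24a was 1.22 ± 0.29 with an adjusted p of 0.059, so it was not called.

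Among 5 lists of red cell genes, 81 of 83 genes were in the table and 45 were tested. Of these 28 were higher and 17 lower in CAC (median 0.18 on the log2 scale), and 3 were called higher and none lower by edgeR's test. The 3 include Slc4a1, which could be tested only because it was high in CAC. Beside this count and those of the lists below, 0.739% of all genes tested were called higher. At an unadjusted p under 0.05, 19 were higher and 4 lower, beside 7.01% of all genes higher. Without the 4 hemoglobin genes, 24 of 41 were higher and 17 lower, 16 higher and 4 lower at an unadjusted p under 0.05, with a median of 0.09.

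In heme synthesis, 14 of 16 genes were tested, of which 6 were higher and 8 lower, with a median of -0.09. None was called by edgeR's test, 4 were higher and 2 lower at an unadjusted p under 0.05, and DESeq2 called 1. Slc25a37, mitoferrin, which brings iron into mitochondria, was at 17.8, 15.3, 33.3 and 18.1 CPM in CTR and 92.2, 39.5, 60.3 and 48.3 CPM in CAC. Its groups did not overlap, and its log2 fold change was 1.54 ± 0.33 with an adjusted p of 0.101. DESeq2 called this gene. Fech, ferrochelatase, which inserts iron to complete heme, had a log2 fold change of 0.43 ± 0.14 (adjusted p 0.149), and Tmem14c, a mitochondrial membrane protein needed for heme synthesis, -0.26 ± 0.09 (adjusted p 0.229).

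In the red cell membrane and cytoskeleton, 10 of 21 genes were tested, 6 were higher and 4 lower, and Slc4a1 and Epb41 were called, with a median of 0.23. Epb41, protein 4.1, which links spectrin and actin to the membrane in many cell types, was at 35.6, 31.6, 46.0 and 42.6 CPM in CTR and 68.0, 49.5, 64.9 and 61.1 CPM in CAC. Its groups did not overlap, and the log2 fold change was 0.65 ± 0.14 with an adjusted p of 0.019. The call of Epb41 was lost without CTR replicate 1, CTR replicate 2 or CAC replicate 3.

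Of 26 genes for reticulocyte enzymes and maturation 14 were tested, 10 were higher, and Ube2l6 was called, with a list median of 0.16. Ube2l6, a ubiquitin-family conjugating enzyme that is also induced by interferon, had a log2 fold change of 1.16 ± 0.28 and an adjusted p of 0.0484, with 3.9 to 8.2 CPM in CTR and 7.4 to 17.4 CPM in CAC. DESeq2 and limma-trend called no gene of this list, and the call of Ube2l6 was lost with library size only, with upper quartile normalization and in 6 of 8 fits with a library left out, all but those without CAC replicate 2 or CTR replicate 3. Mkrn1 and Bpgm, named above for their likeness to hemoglobin, had log2 fold changes of 0.70 ± 0.19 (adjusted p 0.0829) and 0.72 ± 0.22 (adjusted p 0.148).

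Of 10 erythroid transcription factors 3 were tested and none was called by edgeR's test or DESeq2, with Klf3 higher at an unadjusted p under 0.05 (log2 fold change 0.33 ± 0.12, adjusted p 0.243). Tal1 was at 0.50 ± 0.35 and Zfpm1 at -0.07 ± 0.25. Gata1, the master regulator of the lineage, had 1 count in all libraries together. Klf1 had 6 counts in CAC replicate 3 and 1 in CTR replicate 2. Both were chosen after their values were seen. In all, 36 red cell genes in the table were not tested, and 25 of them did not exceed 3 counts in a library.

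**Figure D5:**
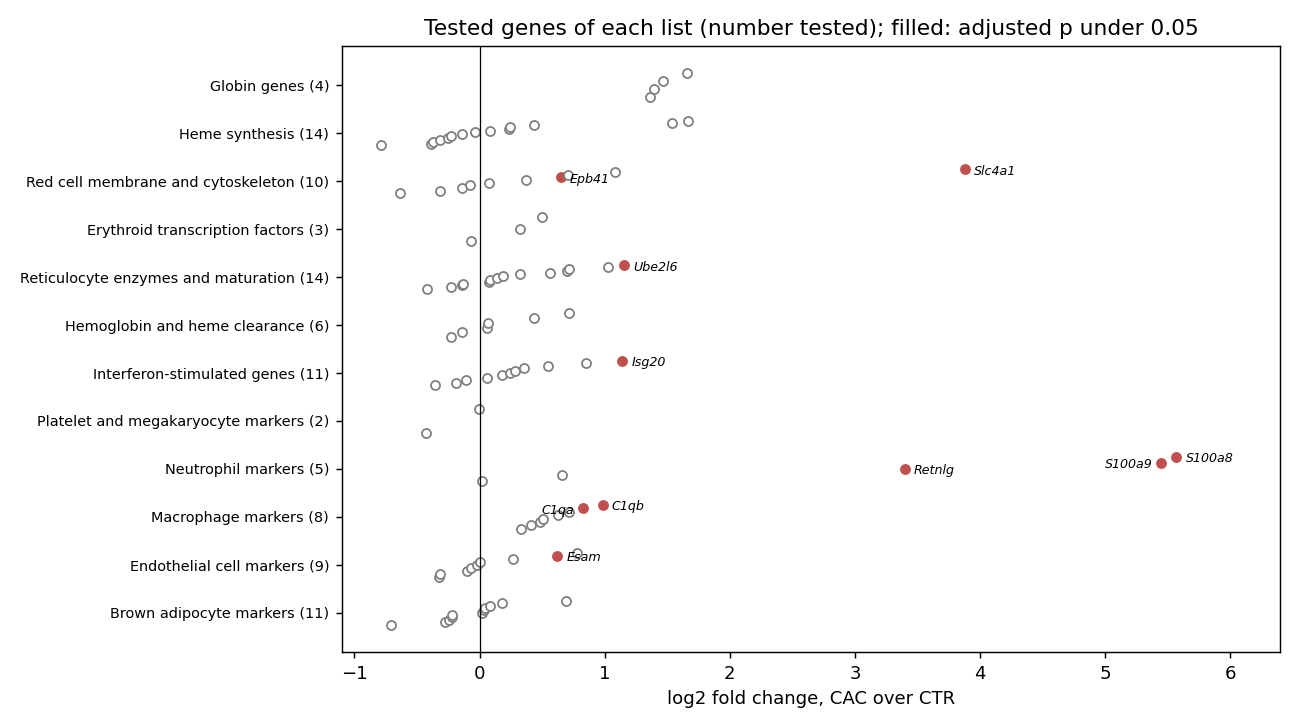
Log2 fold change (horizontal axis) of every tested gene in 12 lists, with the number tested in brackets; filled red points, which are named, have an adjusted p under 0.05. The 4 globin genes lie between 1.36 and 1.66 without a filled point, and in the red cell lists the filled points are Slc4a1, Epb41 and Ube2l6.

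Markers of other blood cells moved unevenly beside the members. Of 16 neutrophil markers 5 were tested, 3 were called higher (S100a9, S100a8 and Retnlg), and their summed level was 20.3 to 30.0 CPM in CTR and 186 to 454 CPM in CAC. In CAC most of that sum was S100a8, at 2.85 to 4.74 CPM in CTR and 108 to 291 CPM in CAC, and S100a9, at 0.822 to 2.49 CPM in CTR and 45.6 to 109 CPM in CAC. In a CTR library S100a9 had at most 9 counts, Retnlg 5 and S100a8 18, so these genes passed the filter mainly through CAC. Their calls carry the limit given for Slc4a1. The study found no significant difference in neutrophil number and reported elevated S100A9 within brown adipocytes of CAC mice. Without the filter on low counts, 6 markers of the list were called, beside 351 of the 23730 genes then tested. No marker of that list was at 0 in every library. With values centred on group means, the neutrophil sum had an r of 0.584 with summed hemoglobin (exact permutation p 0.172). Of 10 macrophage markers 8 were tested, all higher, and C1qa and C1qb were called, with sums of 207 to 233 CPM in CTR and 286 to 407 CPM in CAC. The part of these cells in the level of Isg20 or of the other members was not tested.

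The summed platelet and megakaryocyte markers overlapped between the groups. Of 13 genes, 2 were tested and none was called by edgeR's test, DESeq2 or limma-trend, with 0 at an unadjusted p under 0.05, and the summed level was 25.7 to 37.8 CPM in CTR and 23.6 to 41.7 CPM in CAC. Itga2b, a platelet integrin gene that was not tested and was chosen after its values were seen, was at 1.64 to 2.18 CPM in CTR and 2.63 to 3.11 CPM in CAC, without overlap and from at most 10 counts a library. Tubb1 of this list was at 0 in every library. The platelet sum had an r of -0.099 with summed hemoglobin (exact permutation p 0.806), which rests on the 2 libraries farthest from the median, as it was 0.722 without them. Pf4, a platelet chemokine, had a log2 fold change of -0.004 ± 0.18, and Gp1bb, a platelet adhesion receptor chain, -0.42 ± 0.33.

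Among lymphocytes, 2 of 8 B cell markers were tested and none was called by edgeR's test or DESeq2, with 0 at an unadjusted p under 0.05. These were the immunoglobulin genes Ighm (log2 fold change -0.21 ± 0.29) and Igkc (0.05 ± 0.23). The B cell markers had sums of 22.9 to 39.6 CPM in CTR and 25.3 to 38.7 CPM in CAC. None of 10 T and NK cell markers passed the filter. Of 9 endothelial markers all were tested, 4 were higher, and Esam, an adhesion molecule, was called (log2 fold change 0.62 ± 0.13, adjusted p 0.0201), with sums of 1256 to 1286 CPM in CTR and 1043 to 1508 CPM in CAC. Of 8 genes that clear hemoglobin and heme, 6 were tested, 4 were higher and none was called by edgeR's test, DESeq2 or limma-trend, with 1 higher at an unadjusted p under 0.05. That gene was Hp, haptoglobin, which binds free hemoglobin, with a log2 fold change of 0.44 ± 0.12 and an adjusted p of 0.0844. Cd163, the receptor for that complex, was at 0.71 ± 0.35 (adjusted p 0.413), and Blvrb, a biliverdin reductase, at -0.23 ± 0.16 (adjusted p 0.587). Brown adipocyte markers had a median of 0.02, and of 11 none was called by edgeR's test or DESeq2, with 4 lower at an unadjusted p under 0.05. The smallest p values were those of Plin1, a lipid droplet protein (log2 fold change -0.27 ± 0.09, adjusted p 0.192), Pparg, the adipocyte transcription factor (-0.71 ± 0.25, adjusted p 0.261), and Cox8b, a respiratory chain subunit (-0.22 ± 0.09, adjusted p 0.286).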

How the data were processed

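Single-end libraries of 75 cycles were made from BAT of 4 CTR and 4 CAC mice, taken as 1 per mouse. Per the submitters' processing notes, reads were checked with FastQC 0.11.9, aligned to mm10 with HISAT2 2.2.1 and counted with featureCounts. The authors deposited expected counts per gene, with 25.1% to 28.4% of the values above 0 not whole, because reads that fit several genes were counted in fractions. The other deposited file gives 24792 genes as a normalized signal, that is counts without decimals divided by a size factor, and served for alternatives alone.

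Expected counts were rounded and analysed in R 4.3.3 with edgeR 4.0.16: filterByExpr, TMM, and its robust quasi-likelihood test between both groups, with Benjamini-Hochberg adjustment at 0.05, tested on simulated data first. Levels are TMM-scaled CPM, correlations and likeness used log2 CPM with a prior count of 2, and ratios used counts plus 0.5. Groups were compared by exact two-sided permutation tests. Alternatives were DESeq2 1.42.0, limma-trend from limma 3.58.1 on that signal plus 1, other normalizations and filters, the replicate number as a block, and each library left out. Coordinates are those of GENCODE M21, matched by ID without version. Figures and tables were made in Python 3.11.15 with pandas 2.3.3, numpy 2.4.6, scipy 1.17.1 and matplotlib 3.10.9.

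The genes named are the 8 members, the called genes of each list or else up to 3 with the smallest p, and the 5 genes most like summed hemoglobin and most like the mean of Alas2 and Slc4a1. Apart from this rule, Ucp1, Xist, Ddx3y, Hba-x, Hbb-y, Gata1, Klf1, Itga2b and Tubb1 are given as checks. Members and lists were chosen with earlier results of these data known, so their calls are not independent support. The labels number the replicate libraries without naming mice, and each library is taken here as a separate mouse. On that reading p-values measure the spread between mice.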

Additional observations from a re-analysis of the deposited data

Results flagged for a closer look

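A library is listed here where its gap to the nearest of the other 3 of its group, divided by the group's range, exceeded Dixon's critical value at the 95% level. Of 68 groups of values checked, 8 did so, where chance gives about 1 in 20. The log2 ratio of Hba-a1 to Hba-a2 was 0.43 in CAC replicate 1 against 0.16 to 0.17 in the other CAC libraries, and CTR replicate 4 had 0.18, where its group otherwise ran from 0.15 to 0.16. In CAC replicate 1 both counts carry decimals, and the split between these near-identical copies is uncertain. CTR replicate 3 had 32.9 CPM of Apex2, where the other controls had 12.7 to 15.3 CPM, and is the library that is also highest of its group in hemoglobin and Alas2.

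The summed level of heme synthesis genes was 1756 CPM in CAC replicate 1 against 1390 to 1446 CPM in the other CAC libraries. Platelet markers summed to 25.7 CPM in CTR replicate 1 against 35.8 to 37.8 CPM, and macrophage markers to 207 CPM in CTR replicate 3 against 230 to 233 CPM. Brown adipocyte markers summed to 18904 CPM in CTR replicate 4 against 16955 to 17163 CPM, and interferon-stimulated genes to 678 CPM in CAC replicate 3 against 465 to 481 CPM. The causes were not tested.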

How the results depend on the processing

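The log2 fold changes of the 7 tested members were positive and on the same side of the threshold in 111 of 111 alternatives. Slc4a1 and Isg20 were called in each, except that Slc4a1 was not tested under a minimum of 10 counts in every library, which left 1 member called. Slc4a1 had at most 4 counts in a CTR library and passed the main filter through CAC alone, so its repeated calls are not independent support. At an unadjusted p under 0.05, 6 members passed. Of all genes, 92 were called, and 351 without a filter on low counts. With each library left out the count over all genes ranged from 42 (without CTR replicate 1) to 135, with 60 without CAC replicate 3, and that of red cell genes from 1 (without CTR replicate 1 or 2) to 4, against 3 in the full fit. Without a filter 9 red cell genes were called, beside those 351 of the 23730 genes then tested.

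The difference in the log2 ratio of hemoglobin to Alas2 and Slc4a1 ranged from -0.58 (without CTR replicate 3, exact permutation p 0.0286) to -0.36 with a library left out. It was -2.78 with Slc4a1 alone, and -0.10 with Apex2 counts added (exact permutation p 0.343). For Slc4a1 alone, leaving out a library gave -3.19 to -2.37, and no test is read from this ratio, since Slc4a1 was near 0 in CTR. The difference in the log2 ratio of alpha to beta globin was 0.08 in the full fit and ranged from -0.088 (without CAC replicate 2) to 0.19 with a library left out. The difference in summed hemoglobin ranged from 1.17 to 1.72. The causes of these shifts were not tested.

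Same-numbered libraries correlated at -0.02 to 0.04 in their deviations, so the numbers do not pair the mice. With the replicate block 140 genes were called, among them Isg20 and, with the limit given above, Slc4a1. The difference for hemoglobin to Slc4a1 is -2.78 with or without the block by construction, since balanced pairs leave the difference of means unchanged.

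Depth limits Slc4a1 and Epb42 most, with at most 4 and 0 counts in a CTR library.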
